A study of Mus musculus with 15 samples.

Results

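The genes described here are 9 genes of iron transport and storage in MH-S cells, *Tfrc*, *Steap3*, *Slc11a2*, *Slc11a1*, *Fth1*, *Ftl1*, *Ncoa4*, *Slc40a1* and *Ireb2*. They were chosen by name, as the rows of the count table whose gene identifier carries one of these mouse symbols, and the rule uses no measured value. The names themselves were picked with earlier results of these data known. All 9 were found among 78317 gene identifiers, and all 9 were among the 16654 genes that passed the filter on low counts. MH-S is a mouse alveolar macrophage line transformed with a simian virus, grown here in RPMI medium with fetal calf serum. RNA was sequenced from 15 wells in 5 groups of 3. M0 received medium only, M1 received LPS at 1 µg/mL with IFN-γ at 20 ng/mL, and M2 received IL-4 at 20 ng/mL. The CaP and SiO2 groups received calcium phosphate or silica microrods at 0.1 mg/mL, both made with alginate and layers of protamine and carboxymethyl chitosan. Every exposure lasted 24 h. Each microrod well held a separately made particle batch, but all wells came from 1 cell passage of 1 line, so the spread between libraries covers wells and particle batches and no other passage, line or animal.

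Macrophages take up iron bound to transferrin through the transferrin receptor (*Tfrc*) and iron from engulfed red cells through the phagosome. STEAP3 reduces the iron in the endosome, and the metal transporters encoded by *Slc11a2* (DMT1) and *Slc11a1* (NRAMP1) move it across the endosomal and phagosomal membranes. Iron that is not used is stored in ferritin, a shell of heavy (*Fth1*) and light (*Ftl1*) chains, from which NCOA4 carries it to the lysosome for release. Ferroportin (*Slc40a1*) is the only known exporter of iron from the cell. Iron regulatory proteins, one of them encoded by *Ireb2*, bind hairpins in messenger RNAs called iron-responsive elements (IREs) when iron is scarce. Binding near the start of a transcript blocks its translation, and binding in the 3′ untranslated region (UTR) protects it from decay, so the level of these transcripts is not a measure of their protein.

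Of the 9 genes, 4 held a hairpin that matched the IRE in the principal transcript. These elements are shown because they are the sequence feature that ferritin, ferroportin and the transferrin receptor share, and because their side of the coding sequence differs between the genes. The search, on the transcript strand, required an unpaired C, 5 bases of stem and a loop of CAGTG with any sixth base, with all 5 base pairs of the upper stem and at least 4 of 6 pairs of the lower stem, and 21 of 21864 genes (0.096%) had a match in their untranslated regions. Capitals mark the bulged C and the CAGTG of the loop, and positions are on GRCm38, from a match to GENCODE transcripts and not from the build of the deposited counts.
Slc40a1, 5′ UTR, chr1:45925465-45925493, minus strand: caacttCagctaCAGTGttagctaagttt
Fth1, 5′ UTR, chr19:9982732-9982760, plus strand: ttcctgCttcaaCAGTGcttgaacggaac
Ftl1, 5′ UTR, chr7:45459779-45459807, minus strand: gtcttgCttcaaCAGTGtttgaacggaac
Tfrc, 3′ UTR, chr16:32631219-32631247, plus strand: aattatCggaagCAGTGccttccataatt
Tfrc, 3′ UTR, chr16:32631598-32631626, plus strand: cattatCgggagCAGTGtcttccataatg
Tfrc, 3′ UTR, chr16:32631663-32631691, plus strand: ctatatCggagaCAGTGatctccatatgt
Tfrc, 3′ UTR, chr16:32631710-32631738, plus strand: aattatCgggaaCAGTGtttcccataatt
The single matches of *Slc40a1*, *Fth1* and *Ftl1* lie before the coding sequence, and the 4 matches of *Tfrc* lie after it. The element was in 1 of 4 coding transcripts of *Slc40a1*, 4 of 5 of *Fth1*, 1 of 2 of *Ftl1* and 1 of 3 of *Tfrc*, and counts per gene pool transcripts with and without it. The remaining 5 genes held no match of these letters in the transcript searched. Hairpins that depart from these letters or pairs were not searched for, so this does not show that a gene lacks an element.

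Total counts per library ranged from 8459643 to 68750050. On the second principal component, 3 libraries (M0 replicate 3, M2 replicate 2 and SiO2 replicate 2) stood apart from the other 12, with scores of −42.73, −43.88 and −21.66, and calls on the 9 genes that change without them are given both ways. Each had the lowest total of its group (8459643, 8594947 and 12646926 counts), and the part of depth in their scores was not tested. *Cd68* (677 to 1320 CPM, counts scaled to 1e+06 per library) and *Lyz2* (322 to 2100 CPM) were detected in every library, while the alveolar macrophage genes *Marco* and *Siglecf* reached at most 2.82 and 0.478 CPM. All listed markers of epithelium, fibroblasts, lymphocytes and red cells were under 1 CPM in every library. The summed level of 10 macrophage markers was 2920 to 3910 CPM in M0, 4620 to 4740 in M1 and 1480 to 2230 in M2, against 2990 to 3360 with CaP and 3140 to 3480 with SiO2 microrods. This sum moved in the same direction as several iron genes in M1 and M2, and its part in their values was not tested. It is weighted towards *Lyz2*, *Cd68* and *Cd14*, the markers with the highest median levels, and *Cd14* ran from 42.9 to 1510 CPM over the libraries. Changes of single markers therefore move the sum, and it does not measure a share of cells. In bulk RNA a change in the share of cells that express a gene and a change in the level per cell cannot be told apart.

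The ferritin chains stood far above the other 7 genes. Compared per kilobase of transcript, the mean level over the 15 libraries was 11400 CPM per kb for *Ftl1* and 9680 for *Fth1*, followed by 33.2 for *Slc11a1*, 8.19 for *Slc11a2*, 4.23 for *Tfrc*, 4.13 for *Ncoa4*, 2.37 for *Steap3*, 1.64 for *Slc40a1* and 0.937 for *Ireb2*. In M0, *Ftl1* (9260 CPM per kb) was above *Fth1* (5700 CPM per kb), and in M1 the order was the other way round, with 21100 for *Fth1* and 15200 for *Ftl1*. These levels leave out the counts of ferritin pseudogenes, which bear on the balance of the chains in M1 and are given with the count ratio. The values by library are shown in the plot of levels.

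**Figure D1:**
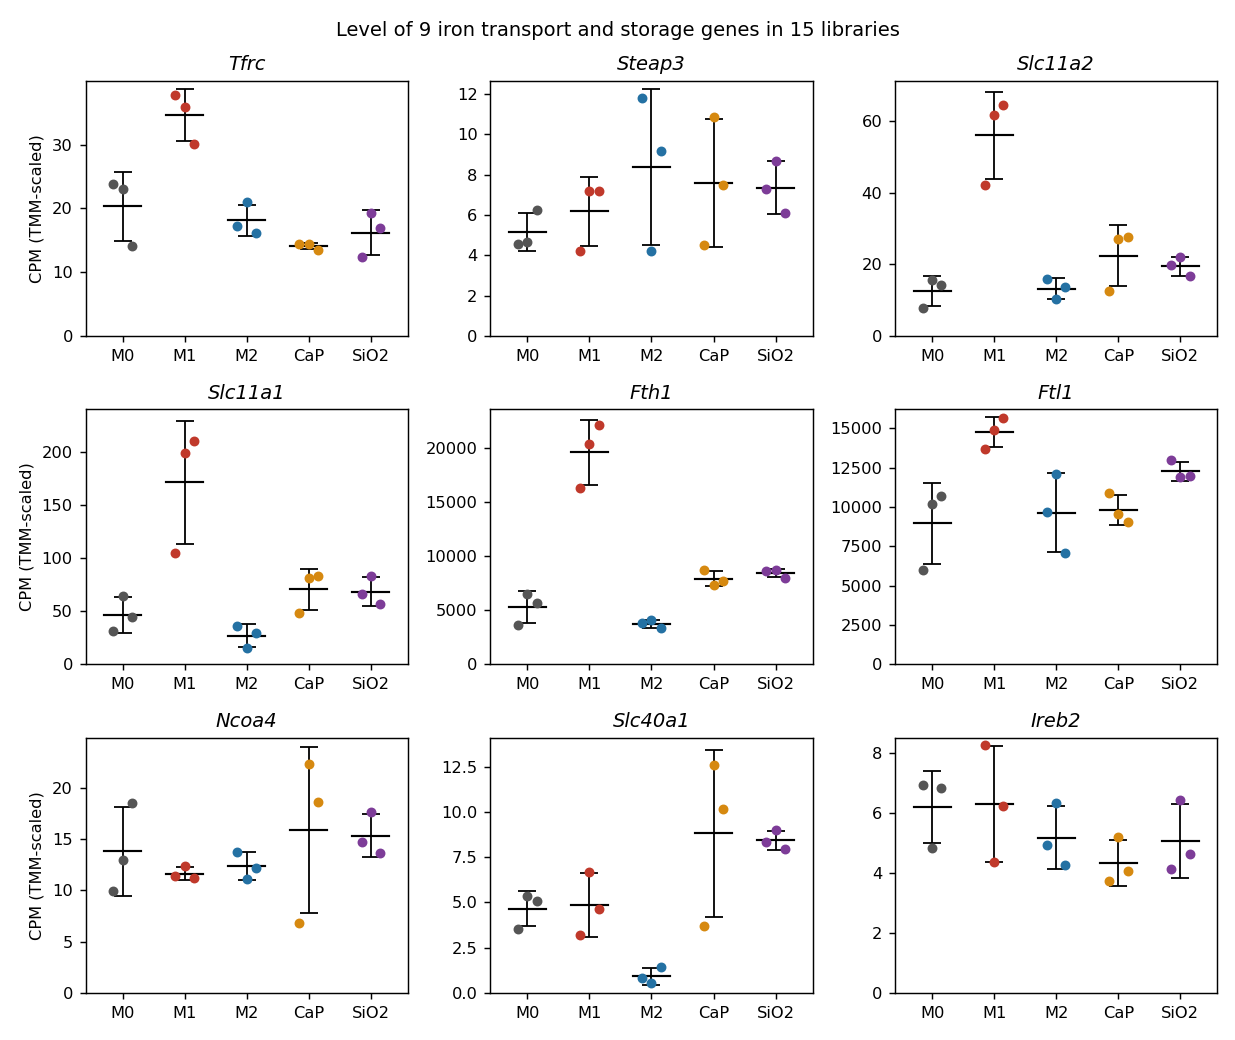
Level of each of the 9 genes, in TMM-scaled CPM on a linear axis that starts at 0, in the 15 libraries. Points are libraries in replicate order, long bars the mean of 3 and error bars the SD; the M1 points of *Fth1*, *Slc11a1* and *Slc11a2* lie above all others, and the M2 points of *Slc40a1* lie below all others.

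The first question was how the classical stimulus moved these genes. In M1 against M0, 5 of 9 genes rose and none fell, where 14.1% of all genes tested were called and 9.70% were called higher. A call required an adjusted p below 0.05 in edgeR's quasi-likelihood test and a log2 fold change beyond 0.5 in either direction. In the same 5 genes the M1 and M0 libraries did not overlap, as in 32.2% of all genes. The median log2 fold change was 0.72 over the 9 genes and −0.01 over all genes.

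The ferritin heavy chain, the subunit that oxidises iron for storage, rose most clearly. *Fth1* was at 3679, 6490 and 5705 CPM in the M0 libraries and at 16280, 20380 and 22100 CPM in the M1 libraries. The lowest M1 library was thus above the highest M0 library. The fitted change was 3.70-fold (log2 fold change 1.89, SE 0.20, 95% interval 1.46 to 2.31, edgeR adjusted p = 2.04e-05). The call held in all 25 alternatives in which it was computed, with log2 fold changes from 1.58 to 2.06.

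The light chain rose less. *Ftl1* was at 6017, 10180 and 10680 CPM in M0 and at 13710, 14870 and 15620 CPM in M1, again without overlap. The fitted change was 1.65-fold (log2 fold change 0.72, SE 0.22, edgeR adjusted p = 0.0418). M0 replicate 1 was the lowest library for both chains, and without it the log2 fold change of *Ftl1* was 0.48 (edgeR adjusted p = 0.153). The call was lost in 12 of 15 fits that left out 1 library and held without M0 replicate 3, M2 replicate 2 or M2 replicate 3. It was also lost with DESeq2's size factors (edgeR adjusted p = 0.0560), with thinned counts (edgeR adjusted p = 0.0515) and with only the M1 and M0 libraries in the model (edgeR adjusted p = 0.101).

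*Ftl1* has near-identical copies, so its counts also depend on how reads were divided. The pseudogene *Ftl1-ps1* held 590 of the 894 windows of 75 bases (the read length) in the *Ftl1* transcript, or 66%, and *Ftl1-ps2* held 2.8%. The pseudogene rows took 22.4% to 33.6% of the counts of *Ftl1* and its copies in M0, 26.1% to 28.3% in M1, 23.5% to 38.9% in M2, 28.9% to 33.4% with CaP and 24.5% to 31.1% with SiO2 microrods. The lowest shares of the M0, M2 and SiO2 groups were in the 3 libraries that stood apart. With the pseudogene counts added to their parent, *Ftl1* was higher in M1 by 0.70 on the log2 scale (edgeR adjusted p = 0.0198). *Fth1* shared no window of 75 bases with the pseudogenes *Fth-ps2* and *Fth-ps3*, and pseudogene rows held at most 0.311% of its counts.

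Among the genes of uptake, both *Slc11* transporters and the transferrin receptor rose in M1. *Slc11a2*, the transporter that moves iron out of the endosome, was at 7.74, 15.7 and 14.2 CPM in M0 and at 42.1, 61.7 and 64.4 CPM in M1. It had the largest fold change of the 9 genes in this comparison, 4.54-fold (log2 fold change 2.18, SE 0.34, edgeR adjusted p = 0.000612). *Slc11a1*, its relative in the phagosome membrane, was at 31.1, 64.4 and 44.5 CPM in M0 and at 105, 199 and 210 CPM in M1 (log2 fold change 1.88, SE 0.36, edgeR adjusted p = 0.00329). No M0 library reached an M1 library for either gene, and both calls held in all 25 alternatives. The 2 genes shared no exact window of 75 bases, and matches with mismatched bases were not searched for.

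*Tfrc* was at 23.8, 23.03 and 14.1 CPM in M0 and at 37.8, 36.0 and 30.1 CPM in M1. The M1 libraries were all higher, by 1.69-fold (log2 fold change 0.76, SE 0.22, edgeR adjusted p = 0.0329). M0 replicate 3, one of the libraries that stood apart, was the lowest of the M0 group, and without it the log2 fold change was 0.56 (edgeR adjusted p = 0.105). The call was also lost without M1 replicate 1 (edgeR adjusted p = 0.0928), without M1 replicate 2 (edgeR adjusted p = 0.100), and without the 3 libraries that stood apart (log2 fold change 0.55, edgeR adjusted p = 0.0618). It was lost, too, without a filter on low counts (edgeR adjusted p = 0.105) and with only the M1 and M0 libraries in the model (edgeR adjusted p = 0.0821). The endosomal ferrireductase *Steap3* ranged from 4.56 to 6.26 CPM in M0 and from 4.21 to 7.19 CPM in M1, and these ranges overlapped (log2 fold change 0.30, edgeR adjusted p = 0.642).

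The exporter, the ferritin receptor and the regulator did not pass the test in M1. *Slc40a1* was at 3.56, 5.33 and 5.10 CPM in M0 and at 3.18, 6.70 and 4.67 CPM in M1, so that the M0 libraries lay within the M1 range (log2 fold change 0.11, 95% interval −0.82 to 1.04). *Ncoa4*, which delivers ferritin to the lysosome, was at 9.96 to 18.5 CPM in M0 and 11.2 to 12.4 CPM in M1 (log2 fold change −0.22). *Ireb2* was at 4.81 to 6.93 CPM in M0 and 4.38 to 8.25 CPM in M1 (log2 fold change 0.01). The intervals of these 3 genes are wide enough to hold changes of 1.5-fold.

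**Figure D2:**
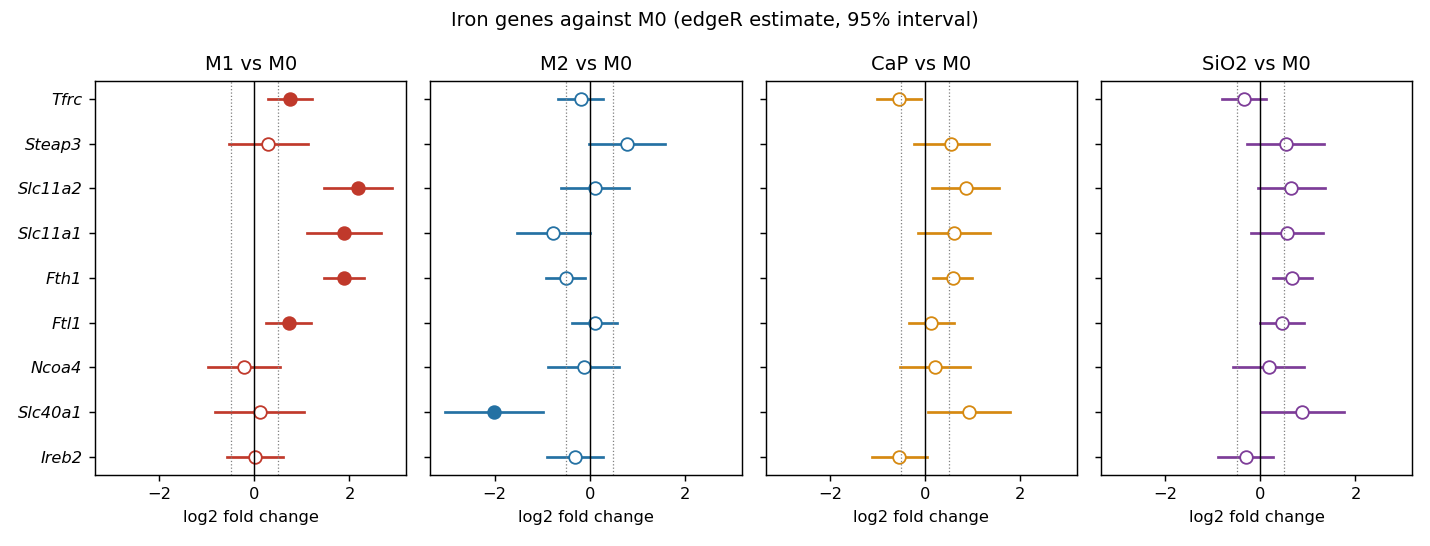
edgeR log2 fold change of each gene in M1, M2, CaP and SiO2 against the shared M0 libraries, with 95% intervals as lines and dotted lines at the threshold of 0.5. Filled points passed the test, namely 5 genes in M1 and *Slc40a1* in M2; all points of the CaP and SiO2 panels are open.

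The second question was what the alternative stimulus did. In M2 against M0, 1 of 9 genes was called, with 4.13% of all genes called and 2.13% called lower. This was *Slc40a1*, the iron exporter, which fell. It had 12, 4 and 100 counts in the M2 libraries, or 0.819, 0.526 and 1.43 CPM. All 3 values were below those of the M0 libraries, and 15.2% of all genes were likewise without overlap in this comparison. The level was 0.925 ± 0.462 CPM in M2 and 4.66 ± 0.965 CPM in M0 (SD, n = 3 each), and the log2 fold change was −2.02 (SE 0.48, 95% interval −3.05 to −0.98). The edgeR adjusted p was 0.0314.

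The call of *Slc40a1* in M2 rested on few counts. It was lost in 5 of 15 fits without 1 library, with edgeR adjusted p-values of 0.0586, 0.0773 and 0.0724 without M0 replicates 1, 2 and 3, and of 0.105 and 0.0637 without M2 replicates 1 and 3. Without M2 replicate 3, the deepest library, the log2 fold change was −2.67. Without the 3 libraries that stood apart it was −1.82 (edgeR adjusted p = 0.0965), and with only the M2 and M0 libraries in the model −2.09 (edgeR adjusted p = 0.0957). Set against M1, *Slc40a1* was lower in M2 by 4.37-fold (edgeR adjusted p = 0.00848), a call that held in every fit without 1 library.

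The other genes of the set had smaller differences in M2. *Fth1* was at 3809, 4061 and 3319 CPM, which overlapped only the lowest M0 library (log2 fold change −0.50, edgeR adjusted p = 0.184). Without M0 replicate 1 it was called lower (log2 fold change −0.73, edgeR adjusted p = 0.0330). *Slc11a1* was at 36.2, 15.5 and 29.6 CPM (log2 fold change −0.77, edgeR adjusted p = 0.295). *Ftl1* (9648, 12120 and 7097 CPM), *Tfrc* (17.3, 20.9 and 16.2 CPM) and *Slc11a2* (16.0, 10.3 and 13.6 CPM) overlapped the M0 values. *Steap3* was at 11.8, 4.21 and 9.16 CPM, with its low value in M2 replicate 2 (log2 fold change 0.78, edgeR adjusted p = 0.307).

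Between the 2 stimuli, 5 of 9 genes were higher in M1 than in M2 and none was lower, with 16.1% of all genes called and 10.6% called higher. These were *Slc11a1* (log2 fold change 2.65, edgeR adjusted p = 0.000224), *Fth1* (2.39, edgeR adjusted p = 1.7e-06), *Slc40a1* (2.13), *Slc11a2* (2.06, edgeR adjusted p = 0.000655) and *Tfrc* (0.95, edgeR adjusted p = 0.00907). The comparison tests the difference between the stimuli directly. *Ftl1* missed the threshold (log2 fold change 0.61, edgeR adjusted p = 0.0726), and passed it without M0 replicate 1 (edgeR adjusted p = 0.0255), without M2 replicate 2 (edgeR adjusted p = 0.0334) or without the 3 libraries that stood apart (edgeR adjusted p = 0.0167).

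The third question was whether microrods moved the same genes. In CaP against M0, 0 of 9 genes passed edgeR's test, with 0.654% of all genes called, 4 of 9 had an unadjusted p below 0.05 (15.8% of all genes did), and DESeq2 also called 0. *Fth1* was the one gene without overlap. It was at 8745, 7328 and 7725 CPM with CaP microrods, all above the highest M0 library, and 17.4% of all genes were likewise without overlap. The level was 7933 ± 731 CPM against 5292 ± 1450 CPM in M0 (SD, n = 3 each). The log2 fold change was 0.58 (95% interval 0.17 to 1.00, edgeR adjusted p = 0.178).

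*Slc40a1* and *Slc11a2* varied widely within the CaP group. *Slc40a1* was at 3.69, 12.6 and 10.2 CPM, so that CaP replicate 1 lay within the M0 range and the other two lay above it (log2 fold change 0.92, 95% interval 0.06 to 1.79, edgeR adjusted p = 0.292). *Slc11a2* was at 12.7, 27.0 and 27.8 CPM, with the same library lowest (log2 fold change 0.86, edgeR adjusted p = 0.238). CaP replicate 1 was also the lowest of the group for *Slc11a1* (48.7 against 81.5 and 82.8 CPM), *Ncoa4* (6.77 against 22.3 and 18.6 CPM), *Steap3* and *Ireb2*, and the highest for both ferritin chains and, by a small margin, *Tfrc*. It was the deepest library of its group (50729211 counts). The deepest M0 library (39201265 counts) was likewise lowest for *Slc40a1*, *Slc11a1*, *Slc11a2*, *Ncoa4* and *Steap3*, but also for both ferritin chains, and highest for *Ireb2*. The deepest M1 and M2 libraries had the highest *Slc40a1* of their groups. The part of depth in these values was not tested. *Tfrc* was at 14.5, 14.4 and 13.5 CPM, close to the lowest M0 library (log2 fold change −0.54, edgeR adjusted p = 0.257).

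With SiO2 microrods, 0 of 9 genes passed edgeR's test against M0 where 0.264% of all genes did, 2 of 9 had an unadjusted p below 0.05 (8.17% of all genes did), and DESeq2 also called 0. *Fth1* was at 8653, 8684 and 7989 CPM, all above M0 (log2 fold change 0.67, 95% interval 0.26 to 1.09, edgeR adjusted p = 0.281). *Slc40a1* was at 8.32, 9.001 and 7.96 CPM, also all above M0 (log2 fold change 0.89, 95% interval 0.01 to 1.77, edgeR adjusted p = 0.610). *Ftl1* (12960, 11880 and 11980 CPM) and *Slc11a2* (19.7, 22.01 and 16.7 CPM) did not overlap M0 either, which makes 4 of 9 genes against 18.0% of all genes. *Tfrc* was at 12.3, 19.4 and 16.9 CPM (log2 fold change −0.35, edgeR adjusted p = 0.745). It overlapped M0 only through M0 replicate 3 (14.1 CPM), one of the libraries that stood apart. Leaving out the 3 libraries that stood apart gave log2 fold changes of −0.67 for SiO2 (edgeR adjusted p = 0.542) and −0.74 for CaP (edgeR adjusted p = 0.128), and neither was called.

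Both microrod comparisons share the M0 libraries, including the low M0 replicate 1, so they are not independent. Without a filter on low counts, when 52647 genes were tested, *Fth1* was called in both, with log2 fold changes of 0.61 (edgeR adjusted p = 0.00441) for CaP and 0.68 (edgeR adjusted p = 0.00205) for SiO2. That setting called more genes of every kind, 968 for CaP and 205 for SiO2, against 109 and 44 of 16654 with the filter. None of the 15 fits without 1 library called *Fth1* in either comparison. Its log2 fold change in those fits ran from 0.36 to 0.76 for CaP (edgeR adjusted p from 0.0866 to 0.583). For SiO2 it ran from 0.46 to 0.85 (edgeR adjusted p from 0.149 to 0.934). The lowest value over all 26 alternatives was 0.26 for CaP and 0.46 for SiO2. In the comparison of M1 with SiO2, *Fth1* was higher in M1 (log2 fold change 1.21, edgeR adjusted p = 0.000933), with 10.5% of all genes called.

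CaP and SiO2 microrods were compared directly at the same concentration and time. None of the 9 genes was called by edgeR or DESeq2 and 0 had an unadjusted p below 0.05 (1.66% of all genes did), with 0.0180% of all genes called by edgeR. The log2 fold change of CaP against SiO2 was −0.09 for *Fth1* (95% interval −0.50 to 0.32), 0.04 for *Slc40a1* (−0.79 to 0.86) and −0.32 for *Ftl1* (−0.79 to 0.15). *Ftl1* was the one gene without overlap, lower in each CaP library than in each SiO2 library, and 8.10% of all genes were without overlap. These intervals do not show that the particles act alike.

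Across the 5 groups, M1 had the highest mean level of *Fth1*, *Ftl1*, *Tfrc*, *Slc11a1*, *Slc11a2* and *Ireb2*. The CaP group had the highest mean of *Slc40a1* (8.83 ± 4.61 CPM) and *Ncoa4*, and M2 had that of *Steap3* (8.39 CPM). For *Slc11a1* and *Slc11a2* the step from M1 to the next group, CaP, passed edgeR's test (log2 fold changes 1.27, adjusted p = 0.0296, and 1.32, adjusted p = 0.0137), with 12.7% of all genes called. Below that step no difference between neighbouring groups passed the test for either gene. For *Tfrc* only the step from M1 to M0 passed, and for *Slc40a1* only the last step, from M0 (4.66 CPM) to M2 (0.925 CPM). *Ftl1*, *Ireb2*, *Ncoa4* and *Steap3* had no pair of neighbouring groups that passed. Groups further apart also differed. *Slc40a1* (edgeR adjusted p = 0.00145), *Fth1* (0.00373) and *Slc11a1* (0.0462) were lower in M2 than in CaP, with 742 of 16654 genes called. *Slc40a1* (edgeR adjusted p = 0.00201) and *Fth1* (0.00245) were lower in M2 than in SiO2, with 608 of 16654 genes called. These pairs were fitted in the main model only. The group means of *Ireb2* ran from 4.32 CPM with CaP microrods to 6.28 CPM in M1, and those of *Ncoa4* from 11.6 CPM in M1 to 15.9 CPM with CaP microrods.

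The balance of the ferritin chains was followed as the ratio of *Fth1* to *Ftl1* counts within a library, which does not depend on how libraries are scaled. Together the chains took 1.42% ± 0.418 of all counts in M0, 3.40% ± 0.475 in M1, 1.28% ± 0.198 in M2, 1.81% ± 0.0702 with CaP and 2.12% ± 0.0875 with SiO2 microrods (SD, n = 3 each). The ratio was 0.612, 0.637 and 0.534 in the M0 libraries. It was 1.19, 1.37 and 1.42 in M1, so that heavy chain counts exceeded light chain counts in all 3 libraries of that group and in no library of the other groups. With pseudogene counts added to both chains, the log2 ratio in the M1 libraries was −0.205, −0.024 and 0.065, and heavy chain counts were then the higher in 1 of 3.

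The ratio was 0.395, 0.335 and 0.468 in M2, 0.804, 0.769 and 0.852 with CaP, and 0.668, 0.731 and 0.667 with SiO2 microrods. None of the 4 groups overlapped M0, being higher in M1, CaP and SiO2 and lower in M2. The difference of the mean log2 ratio from M0 was 1.16 in M1, −0.58 in M2, 0.45 with CaP and 0.21 with SiO2 microrods. Each gave p = 0.1 in a two-sided exact permutation test, the smallest p that 3 libraries against 3 allow, so no ratio can pass a threshold of 0.05. With pseudogene counts added to both chains the differences were 1.18, −0.65, 0.39 and 0.21.

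**Figure D3:**
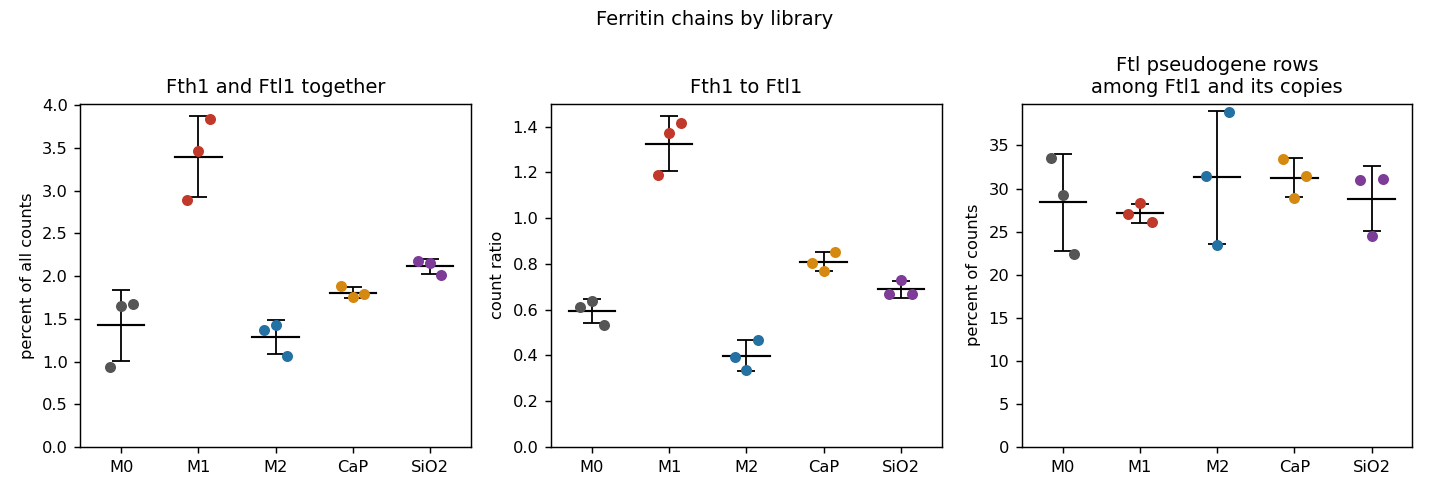
Share of all counts held by *Fth1* and *Ftl1* (left, percent), count ratio of *Fth1* to *Ftl1* (middle) and share of pseudogene rows among the counts of *Ftl1* and its copies (right, percent), per library, with the mean and SD of 3. Without pseudogene rows the ratio is above 1 in the 3 M1 libraries (in 1 of 3 once they are added) and below 0.5 in the 3 M2 libraries, and the pseudogene shares of the groups overlap.

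The genes around the set were read from a list of 48 other genes of iron and heme handling, of which 34 passed the filter. In M1 against M0, 8 rose and 1 fell, where 14.1% of all genes were called and 9.70% called higher, and the median of the list was 0.29 against −0.01 for all genes. *Alas1*, the rate-limiting enzyme of heme synthesis outside red cells, was at 31.0, 61.3 and 42.9 CPM in M0 and at 351, 562 and 572 CPM in M1 (log2 fold change 3.46, edgeR adjusted p = 8.03e-06). Every M1 library was above every M0 library. *Lcn2*, which binds bacterial siderophores, had 6, 3 and 0 counts in M0 and 974, 1559 and 1245 in M1, or 0.158, 0.195 and 0 CPM against 83.7, 107 and 121 CPM.

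Further genes of iron uptake and heme breakdown rose in M1. Transferrin itself (*Trf*) was at 21.8 CPM in M0 and 66.2 CPM in M1 on average (log2 fold change 1.61, edgeR adjusted p = 0.000535). The second transferrin receptor, *Tfr2*, was at 0.910 and 8.41 CPM (log2 fold change 2.79, edgeR adjusted p = 0.00573), and the biliverdin reductase *Blvrb* at 45.6 and 163 CPM (log2 fold change 1.84, edgeR adjusted p = 1.37e-05). *Tfr2* was at 2.11, 0.390 and 0.232 CPM in the M0 libraries, and its log2 fold change was 4.62 without M0 replicate 1 and 2.28 without M1 replicate 1. *Alas1*, *Lcn2*, *Trf*, *Tfr2* and *Blvrb* were called in all 15 fits without 1 library. The mitochondrial genes *Iscu* (0.92, iron-sulfur cluster scaffold), *Slc25a37* (0.81, mitoferrin) and *Cisd1* (0.55) rose less, and the iron chaperone *Pcbp1* fell by 0.90 on the log2 scale. Their calls held in 11, 12, 3 and 9 of 15 fits without 1 library.

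In M2 against M0, 1 of these 34 genes rose and 2 fell, where 4.13% of all genes were called, and the median was 0.04 against 0.07 for all genes. *Hfe*, the hemochromatosis gene, whose product binds the transferrin receptor, was at 19.5, 30.8 and 30.5 CPM in M0 and at 152, 177 and 109 CPM in M2 (log2 fold change 2.44, edgeR adjusted p = 1.32e-05). Haptoglobin (*Hp*), which captures free hemoglobin, was at 25.7, 29.3 and 30.1 CPM in M0 and at 0.751, 1.05 and 0.587 CPM in M2 (log2 fold change −5.34, edgeR adjusted p = 1.21e-08). The metal importer *Slc39a14* fell by 0.88 on the log2 scale (edgeR adjusted p = 0.0325), a call that held in 10 of 15 fits without 1 library. Without the 3 libraries that stood apart its log2 fold change was −0.73 (edgeR adjusted p = 0.139).

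In M1 against M2, 11 of the 34 genes were higher and *Hfe* was lower, where 16.1% of all genes were called and 10.6% called higher. Beside genes already named, these included *Fbxl5* (log2 fold change 1.08, edgeR adjusted p = 0.0291), whose product marks iron regulatory proteins for degradation, and the ubiquitin ligase *Herc2* (log2 fold change 0.86, edgeR adjusted p = 0.0374). Their calls held in 11 and 8 of 15 fits without 1 library, and that of *Herc2* was also lost with thinned counts, without a filter and with only the M1 and M2 libraries in the model. *Pcbp1* was not called in the main fit (log2 fold change −0.68, edgeR adjusted p = 0.101), and its M1 and M2 libraries overlapped. It was called in 1 of 15 fits without 1 library. With the 3 libraries that stood apart left out it was called lower in M1 (log2 fold change −0.84, edgeR adjusted p = 0.0402). That setting called 5264 of 17462 genes.

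In each microrod comparison with M0, 0 of the 34 genes passed edgeR's test. With CaP microrods, 7 had an unadjusted p below 0.05, against 15.8% of all genes. DESeq2 called 2, *Hmox1* (log2 fold change 1.13, DESeq2 adjusted p = 0.00338) and *Alas1* (1.18, DESeq2 adjusted p = 0.0162). Among all genes with any count DESeq2 called 438 of 52647 (0.832%). Many of those genes were under the filter that the 34 had passed, so this share is not on the same base as the 2 of 34. *Hmox1* encodes heme oxygenase, which frees iron from heme, and was at 54.3, 110 and 81.1 CPM in M0 and at 155, 181 and 206 CPM with CaP microrods, without overlap (edgeR adjusted p = 0.0629). With SiO2 microrods, 6 had an unadjusted p below 0.05, against 8.17% of all genes. DESeq2 called 1, *Alas1* (1.18, DESeq2 adjusted p = 0.0458), which was at 106, 114.4 and 85.6 CPM. DESeq2's share was 117 of the 52647 genes (0.222%), again on the wider base. Between CaP and SiO2 microrods, neither edgeR nor DESeq2 called any of the 34 (0 with an unadjusted p below 0.05).

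**Figure D4:**
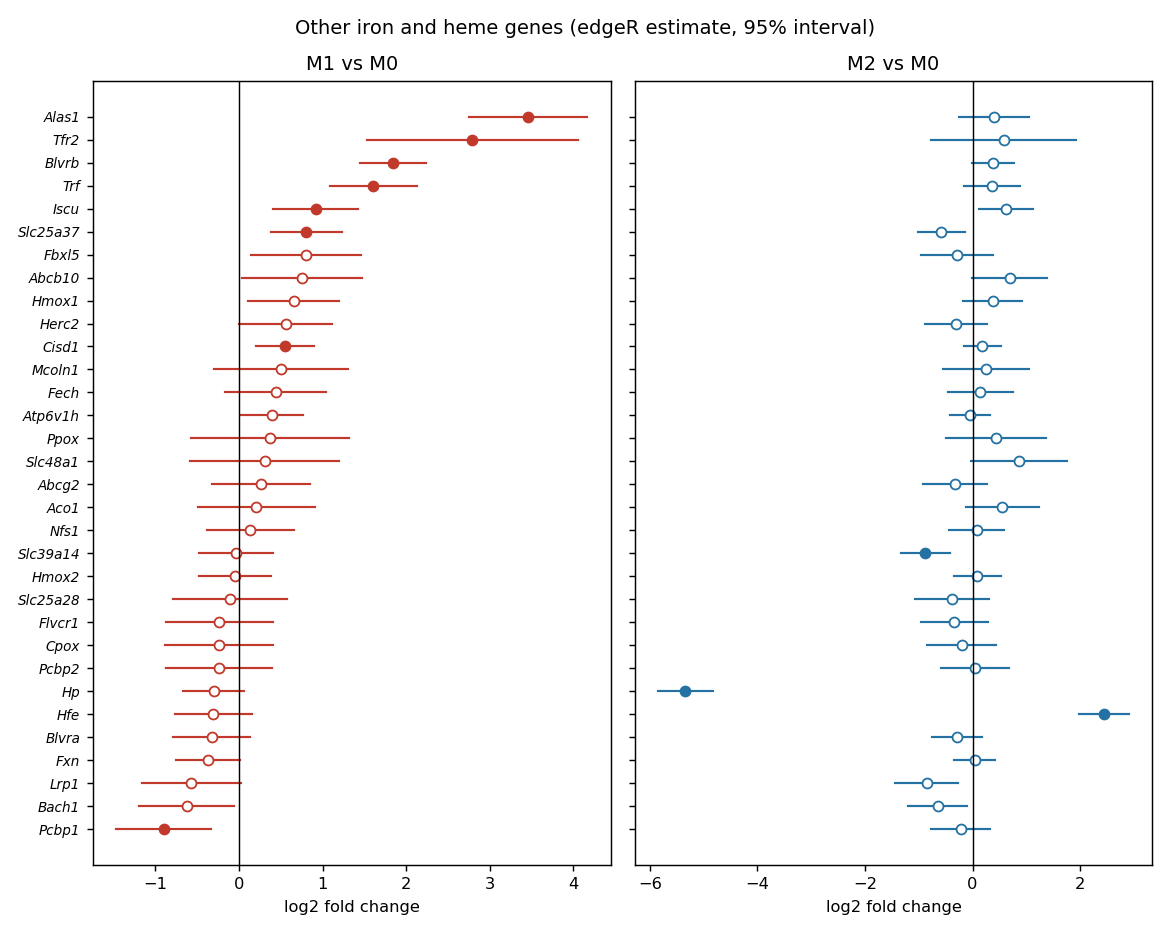
edgeR log2 fold change against M0 of genes of the iron and heme list that passed the filter, with 95% intervals as lines, in M1 (left) and M2 (right). Filled points passed the test; *Lcn2* is left out because its M0 and M2 libraries held few or no counts.

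Over the 15 libraries, *Fth1*, *Slc11a1* and *Slc11a2* varied together. Pearson's r of log2 CPM was 0.92 between *Slc11a1* and *Slc11a2*, 0.92 between *Fth1* and *Slc11a1*, 0.89 between *Fth1* and *Slc11a2* and 0.80 between *Fth1* and *Ftl1*. These values describe libraries that fall into 5 groups and differ in depth, and the M1 group sets much of their range. Among 9890 genes with a mean of at least 5 CPM, the patterns most like that of *Slc40a1* were those of *Apbb2* (0.97), *Rasgef1b* (0.96) and *Tgfbr2* (0.93). The nearest to *Tfrc* were *Stk38l* (0.92), *Sfxn5* (0.90) and *Ccar1* (0.89), and the nearest to *Fth1* were *Procr* (0.97), *Ifi27* (0.97) and *Htatip2* (0.96).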

How the data were processed

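RNA of 15 wells of MH-S cells was sequenced as 75-base read pairs from Smart-seq2 libraries. The authors ran the nf-core/rnaseq pipeline (STAR and Salmon, Ensembl annotation; the build in the submitters' processing notes is GRCm39) and deposited 1 table of raw counts per Ensembl gene identifier, with no normalization and no filter. Since Salmon estimates its counts, the whole numbers deposited are possibly rounded, and the split between near-identical genes comes from that step. All columns were mapped to samples by name, and 0 were unused. Wells are the replicates, so p-values measure the spread between wells of 1 passage. No molecular identifiers were used, so count limits cover counting error only.

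Of 78317 identifiers, 51487 received a symbol from GENCODE M21 (GRCm38), which also gave transcript lengths and hairpin positions. The tests were run in edgeR 4.0.16 under R 4.3.3 (filterByExpr by group, TMM scaling, quasi-likelihood test, 1 model of the 5 groups, Benjamini-Hochberg adjustment over 16654 genes). As in the study's methods, a call needed an adjusted p below 0.05 together with a log2 fold change of more than 0.5 either way. CPM are relative to TMM-scaled library sizes. Correlations used log2 CPM with a prior count of 2. Standard errors were derived from the F statistic. Scripts were tested on simulated data with fixed seeds. Alternatives were DESeq2 1.42.0, DESeq2's size factors, no filter, at least 10 counts in every library, a replicate block, thinning to 8459643 counts, only the 6 libraries compared, the 9 M0, CaP and SiO2 libraries for the microrod comparisons, no fold threshold, pseudogene counts added and each library left out. Leaving out the 3 libraries that stood apart, and the deepest M0 and CaP libraries, was added after seeing the data.

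The genes named are the 9 members, genes of the wider list that were called, the 3 genes most like *Slc40a1*, *Tfrc* and *Fth1*, and ferritin pseudogenes; 1 gene of the wider list is not reported here. The cell type markers named beside them are those of the list. The members, lists and tests were chosen with earlier results of these data known, so they support nothing independently. *Hmox1* and *Hamp* were named after their values were seen. The labels' replicate numbers were not treated as pairing the libraries.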

Additional observations from a re-analysis of the deposited data

How the results depend on the processing

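The fits covered 26 settings. Of 1371 values of single iron genes under an alternative, 1332 kept their side of the threshold (48 of these, called in neither fit, changed sign), 30 lost the call, 9 gained it and 0 reversed. The number of iron genes called was 5 in M1 against M0, 3 with only the 6 libraries compared, and 3 to 5 without 1 library. In M2 against M0 it was 1, and 0 with at least 10 counts in every library (where *Slc40a1* was not tested), 0 with only the 6 libraries compared, 0 without the 3 libraries that stood apart, 2 without the deepest M0 and CaP libraries, and 0 to 1 without 1 library. Without a filter it was 1 rather than 0 in CaP and in SiO2 against M0, where 968 and 205 of all 52647 genes were called. In M1 against M2 it was 4 to 6 throughout, and in CaP against SiO2 it was 0. The cause of these changes was not tested. In the wider list, 9 genes were called in M1 against M0, and 5 without M1 replicate 3. In CaP against M0 the count of 0 became 2 with DESeq2, 3 without a filter, and 0 to 2 without 1 library (1 without M0 replicate 2 and 2 without M2 replicate 2), and in SiO2 against M0 it became 1 with DESeq2 and 1 without a filter. The ratio of ferritin chains kept its direction in every setting. Replicate numbers did not mark pairs, with a median correlation of −0.005 between same-numbered libraries over 30 pairs. With a replicate block, 4 iron genes were called in M1 against M0 (*Ftl1* at adjusted p = 0.0597), 1 in M2 against M0, 5 in M1 against M2 and 0 in the microrod comparisons. The order of neighbouring groups was tested in the one model. *Slc40a1* had 4 to 100 counts in the M2 libraries, which limits that value.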

Other observations

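*Hamp*, which encodes hepcidin, the hormone that triggers the breakdown of ferroportin, did not pass the filter on low counts. It was at 0 CPM in all 3 M0 and all 3 CaP libraries, at no more than 0.0396 CPM in M2 and SiO2, and at 0.430, 0.684 and 0.680 CPM in the M1 libraries. The M1 values are 5, 10 and 7 counts. DESeq2, run without that filter, gave an adjusted p of 0.0163 for M1 against M0, where it called 4.96% of 52647 genes. This call rests on few counts.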
